A study of Mus musculus with 50 samples.

Results

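Map3k1, a kinase that starts a stress-activated kinase cascade, was followed in 50 mouse mammary gland (MG) tumors together with 9 other genes. Like Map3k1, the genes Map2k4, Ncor1, Runx1, Cbfb, Tbx3, Rb1, Arid1a and Nf1 are known as drivers of human breast cancer. Traf7, grouped with them here, was in the study's general list of human tumor drivers. These 10 genes were found by name among the 37701 genes of the table, each with 1 row. All 10 had a mean level of at least 0.5 RPKM (reads per kilobase of gene length, scaled to library size in M reads) and so were among the 16733 genes tested. Map3k1 and Ncor1 were picked because they were higher in insulin-treated than in vehicle-treated tumors, and their levels in those groups are given as a description only. The other 8 genes were named beside them as known drivers.

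The tumors arose in female p53R270H/+WAPCre mice, which carry a mutant p53 allele that the WAPCre transgene switches on in MG epithelium, in the vehicle group as in all others. From 8 weeks of age the mice were injected under the skin every other day with vehicle, insulin, glargine, X10 or IGF1, until a tumor had reached 1 cm3, and tumors were taken 24 h after the last injection. Glargine and X10 are modified insulins, X10 with a raised affinity for the IGF1 receptor, and IGF1 is insulin-like growth factor 1. Each group had 10 tumors, which the study had selected as EMT-like (with mesenchymal features) and of a latency near the median of their group. The study still placed some of the selected tumors, vehicle tumors among them, in a cluster with high epithelial and low mesenchymal expression. It reports a shorter latency with X10 and IGF1, so mouse age and length of treatment differed between groups and cannot be told apart from the compound. Tumors are named by their titles, which give group and mouse number, where Untreated stands for the vehicle group and IFG1_132 was taken as an IGF1 tumor.

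Most of the 10 genes work in pathways that are often broken in breast cancer. Map3k1 phosphorylates the kinases Map2k4 and Map2k7, which in turn activate JNK. Ncor1 is a corepressor that brings histone deacetylase to nuclear receptors, Runx1 is a DNA-binding factor of luminal cells and Cbfb its binding partner, and Tbx3 is a T-box factor of early MG development. Rb1 holds E2F factors in check before S phase, Arid1a is the DNA-binding subunit of a SWI/SNF chromatin remodeler, Nf1 switches off RAS, and Traf7 is a ubiquitin ligase that binds Map3k3. In human tumors the genes other than Traf7 are mostly lost or inactivated by mutation, which the RNA levels given here do not show.

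For 3 of the genes the sequence around the start of transcription is shown, since Map3k1 and Ncor1 were picked by their insulin values and Traf7 was the steadiest gene of the 10. RefSeq promoter windows of 300 bases (GRCm38.p6) were found for 8 of the 10 genes. Where a gene had several, the window farthest upstream was taken. Capitals mark matches, on either strand, to 7 motifs that were searched: the GC box GGGCGG, the CCAAT box CCAAT, the ETS motif CCGGAAG, the CRE TGACGTCA, the AP-1 motif TGACTCA, the E2F motif TTTCGCGC and, by name, the NRF1 motif.
Map3k1, chr13:111808944-111809243, minus strand: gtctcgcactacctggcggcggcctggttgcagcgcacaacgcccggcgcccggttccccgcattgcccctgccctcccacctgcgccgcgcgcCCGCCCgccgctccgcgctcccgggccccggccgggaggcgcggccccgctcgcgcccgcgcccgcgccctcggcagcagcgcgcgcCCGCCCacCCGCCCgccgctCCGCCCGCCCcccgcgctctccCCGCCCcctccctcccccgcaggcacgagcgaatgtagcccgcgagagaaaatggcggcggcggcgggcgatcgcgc
Ncor1, chr11:62457283-62457582, minus strand: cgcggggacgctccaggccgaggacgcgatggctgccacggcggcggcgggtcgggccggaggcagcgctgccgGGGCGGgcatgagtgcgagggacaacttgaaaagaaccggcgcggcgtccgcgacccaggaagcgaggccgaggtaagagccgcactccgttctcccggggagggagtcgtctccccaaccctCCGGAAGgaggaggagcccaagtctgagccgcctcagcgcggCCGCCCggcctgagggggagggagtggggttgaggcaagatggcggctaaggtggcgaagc
Traf7, chr17:24527889-24528188, minus strand: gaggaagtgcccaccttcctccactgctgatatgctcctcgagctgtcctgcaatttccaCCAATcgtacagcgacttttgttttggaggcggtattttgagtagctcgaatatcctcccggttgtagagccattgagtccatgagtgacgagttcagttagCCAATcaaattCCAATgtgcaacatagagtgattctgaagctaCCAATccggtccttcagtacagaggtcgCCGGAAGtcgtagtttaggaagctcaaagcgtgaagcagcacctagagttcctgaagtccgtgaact
The Map3k1 window had a GC content of 82.7% and 6 GC boxes, a pair of which overlap in the longest run of capitals. In the Ncor1 window, with a GC content of 72.3%, there were 2 GC boxes and 1 ETS motif. The Traf7 window, with 49.0% GC, had no GC box but 4 CCAAT boxes and 1 ETS motif. The median GC content over all 32544 promoter windows was 53%, and 35.9% of them held a GC box, 37.4% a CCAAT box and 8.91% an ETS motif. A match of letters is a description and not a binding site.

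Library size, recovered from the steps of the RPKM values, was between 26.6 and 51.9 M reads. The tumors differed in the balance between long and short genes. This was measured as the median level of coding genes with at least 6000 exonic bases minus that of coding genes with at most 2000, on the log2 scale and without the 10 genes. The score was between -1.004 and 0.40, and its group median was 0.01 in vehicle, 0.12 in insulin, 0.13 in glargine, 0.11 in X10 and -0.10 in IGF1 tumors. The lowest tumors were IGF1_160 (-1.004), glargine_47 (-0.76) and Untreated_174 (-0.74). The same 3 tumors were those most often found among the 3 lowest tumors of a gene after centring on the group mean. Untreated_174 was so in 5 of the 10 genes, IGF1_160 in 4 and glargine_47 in 3. Summed epithelial markers were between 11.2 and 9410 RPKM, with Krt5 at 0 in 2 tumors, and summed fibroblast and mesenchymal markers between 4015 and 35113 RPKM with no marker at 0. In such whole tumor pieces, fewer cells of a type and less RNA per cell cannot be told apart.

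All 10 genes were expressed in all 50 tumors. On the scale of the deposited RPKM values Ncor1 and Traf7 led, with medians of 173.7 and 154 RPKM over the tumors, followed by Rb1 (61.1), Map3k1 (52.6), Map2k4 (50.5), Cbfb (44.3), Arid1a (20.2), Nf1 (14.4), Runx1 (13.4) and Tbx3 (4.65). This order rests on the gene length by which the authors divided. The length recovered from the values was 544 bases for Map3k1, 409.5 for Rb1, 796.5 for Ncor1 and 727 for Traf7, whereas the exons of these genes cover 7447, 6015, 12811 and 5872 bases in GENCODE M21 (GRCm38). For 5 of the 10 genes (Map3k1, Map2k4, Rb1, Arid1a and Traf7) the length used was the median length of all annotated transcripts, short fragments included. The exonic length was 13.7 times the length used for Map3k1, 14.7 times for Rb1 and 16.1 times for Ncor1, against a median of 2.19 over 13390 coding genes. Only 1.59% of those genes had a ratio as large as Map3k1, 1.19% as large as Rb1 and 0.881% as large as Ncor1. Within a gene the length is the same in all tumors, and it bears on a comparison between tumors only through the filter on low values and the 0.5 RPKM added before the logarithm.

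**Figure D1:**
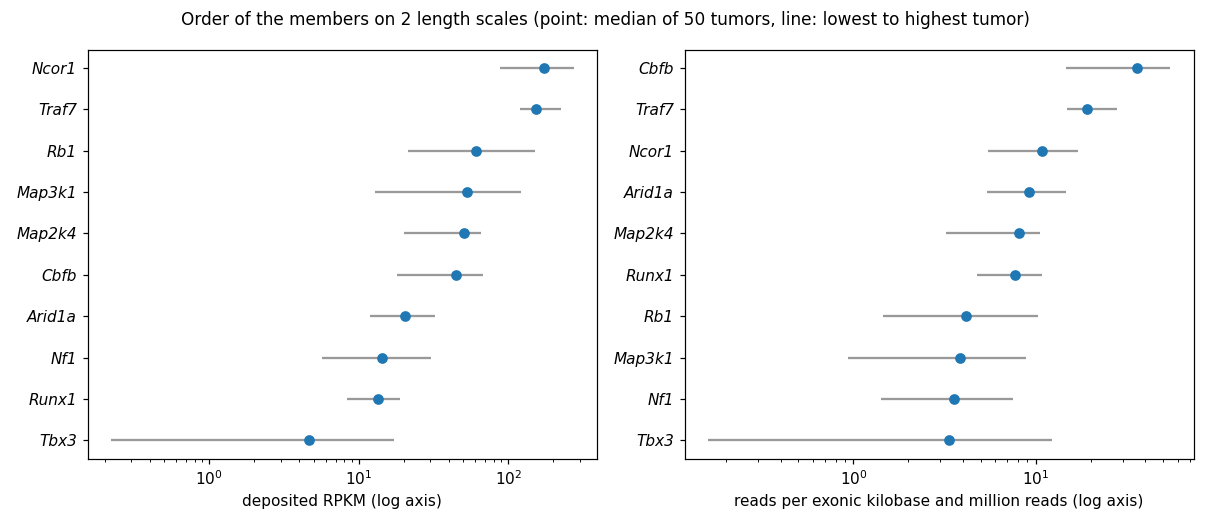
Median (point) and lowest to highest tumor (line) of each gene over 50 tumors, on log axes, as deposited RPKM (left) and as reads per exonic kilobase and M reads (right). Rb1 and Map3k1 stand at 61.1 and 52.6 RPKM on the left, above Cbfb at 44.3, and at 4.16 and 3.84 on the right, where Cbfb leads with 36.1.

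Per exonic kilobase and M reads, Cbfb was the highest of the 10 genes, with a median of 36.1, and Traf7 followed with 19.1. Ncor1 had 10.8, Arid1a 9.20, Map2k4 8.13 and Runx1 7.69. Rb1 (4.16), Map3k1 (3.84), Nf1 (3.58) and Tbx3 (3.35) were lowest. Cbfb was above Traf7 in 47 of 50 tumors, by 0.85 ± 0.51 on the log2 scale (SD, n = 50), and Traf7 was above Ncor1 in 50 of 50. From Ncor1 to Runx1 neighbours differed by less than their spread, such as Map2k4 and Runx1 (0.09 ± 0.39 on the log2 scale, Map2k4 higher in 32 of 50). Runx1 was above Rb1 in 46 of 50 tumors, by 0.87 ± 0.63, and from Rb1 to Tbx3 neighbours again differed by less than their spread. Per kilobase of the longest transcript marked as principal in GENCODE M21, Cbfb (43.5) and Traf7 (37.3) still led, but Runx1 (15.8) stood above Ncor1 (15.3), and Map3k1 (4.10) was lowest, below Tbx3 (4.46). At the low end of the exonic order Map3k1 was above Nf1 in 25 of 50 tumors, and Nf1 was above Tbx3 also in 25 of 50. The reads behind these values were between 313 and 3027 per tumor for Map3k1, 378 and 1975 for Rb1, and 3097 and 8816 for Ncor1. Tbx3 had the fewest, 43 reads in its lowest tumor and 893 in the median tumor, and the other 6 genes had 566 or more in every tumor. Of the exonic bases of Traf7, 4.55% are also covered by exons of genes on its own strand, so that some of its reads may have been left out in counting. Of those of Rb1, 14.9% are covered by exons of genes on the opposite strand (Lpar6 and Rcbtb2). Whether reads of Rb1 were left out depends on whether counting used the strand.

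Map3k1 and Ncor1 showed the pattern for which they were picked. In vehicle tumors Map3k1 was between 12.8 and 72.3 RPKM with a median of 43.1, and in insulin tumors between 50.3 and 121 RPKM with a median of 60.8. All 10 insulin tumors were above the vehicle median, 7 of 10 vehicle tumors were below the lowest insulin tumor, and the groups overlapped in the rest. The log2 difference on log2(RPKM + 0.5), the scale of all differences given here, was 0.86 for Map3k1. Untreated_174 and Untreated_161 were the lowest tumors of the 50 with 12.8 and 13.9 RPKM, and without them the difference was 0.50. Ncor1 was between 88.1 and 210 RPKM in vehicle tumors (median 154) and between 165 and 258 RPKM in insulin tumors (median 181), a log2 difference of 0.43. With the long-minus-short gene score as a covariate the difference was 0.26 for Ncor1 and 0.70 for Map3k1, and the part of that score in them was not tested further. No gene of the 16733 passed an adjusted p-value of 0.05 in this comparison in limma (0% called; 11.1% had an unadjusted p-value under 0.05).

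The other 8 genes did not share one direction between insulin and vehicle. Arid1a was between 17.4 and 32.2 RPKM in insulin tumors (median 23.4) and between 13.0 and 23.9 RPKM in vehicle tumors (median 20.2), with 5 insulin tumors above every vehicle tumor. The log2 difference was 0.29 for Arid1a and 0.48 for Rb1, whose 9 insulin tumors of 10 lay above the vehicle median. Without Untreated_161 and Untreated_174 it was 0.18 for Arid1a and 0.26 for Rb1, and for Rb1 it was 0.22 with the long-minus-short score as a covariate. Cbfb (0.18) and Map2k4 (0.11) were slightly higher with insulin on the same scale. Runx1 (-0.19), Tbx3 (-0.20), Traf7 (-0.04) and Nf1 (-0.01) were lower or level. The 10 genes were part of the fit across all genes, but since the contrast is that of the rule, no p-value is given for these differences and nothing is read from the count of calls.

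**Figure D2:**
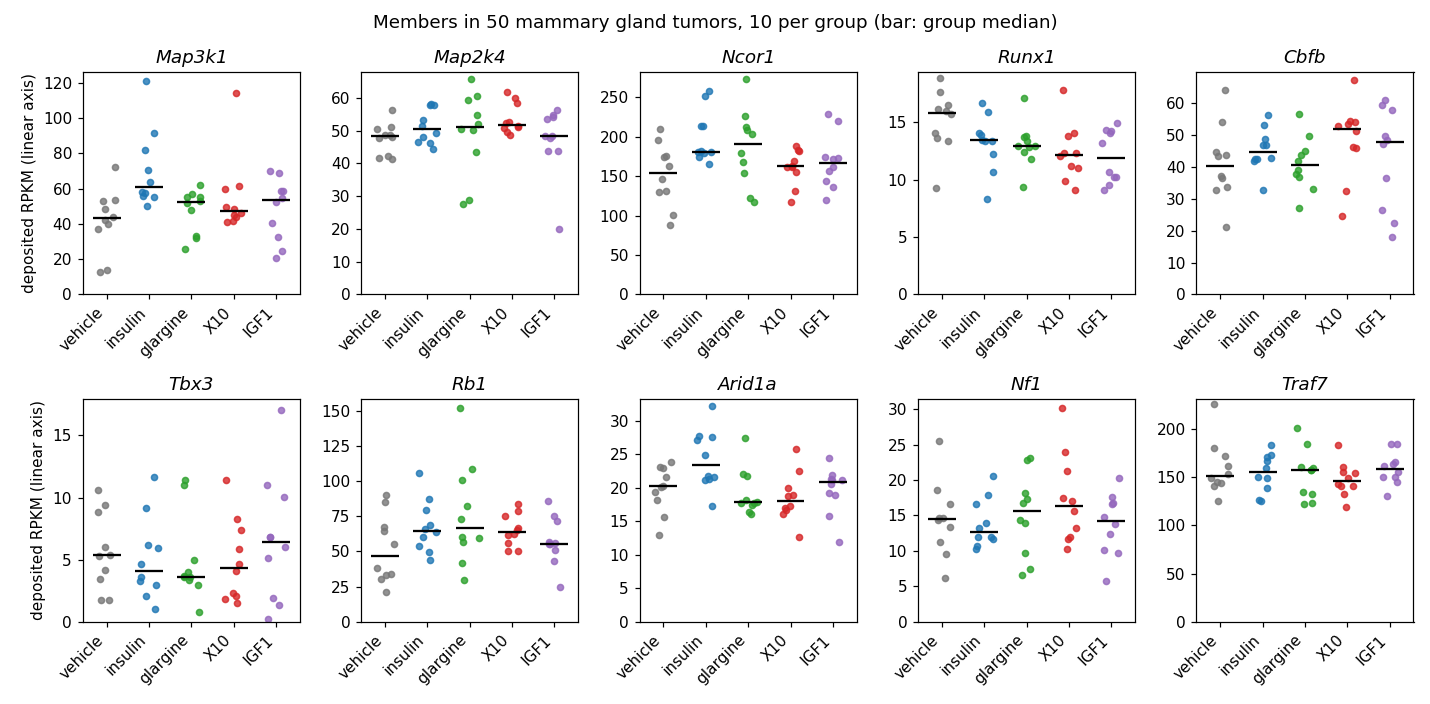
Deposited RPKM (linear axis from 0) of each of the 10 genes in 50 tumors, 10 per treatment group, with a bar at the group median. Insulin tumors lie high for Map3k1, Ncor1 and Arid1a, vehicle tumors lie high for Runx1, and in each panel the groups overlap.

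In the other treatments the median level of Map3k1 was 52.3 RPKM with glargine (25.5 to 62.1), 47.0 with X10 (41.1 to 114) and 53.6 with IGF1 (20.6 to 70.2), between those of vehicle and insulin. Ncor1 medians were 191 RPKM with glargine (117 to 273), 163 with X10 (117 to 188.99) and 167 with IGF1 (120 to 229). Insulin thus had the highest Map3k1 median, whereas for Ncor1 the glargine median was above that of insulin but the mean was below it (186.3 ± 48.2 against 199.9 ± 33.2 RPKM, SD, n = 10 each). Because the vehicle tumors had a part in the choice of these 2 genes, they were tested only between glargine, X10 and IGF1.

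None of the 10 genes differed between treatments at an adjusted p-value of 0.05 in any of the 62 tests outside the contrasts that the choice of Map3k1 and Ncor1 rests on (limma, Benjamini-Hochberg adjustment over 16733 genes, smallest adjusted p = 0.375 for Runx1 in X10 against vehicle). The comparisons with vehicle share the same 10 vehicle tumors. Over all tested genes, 0% were called between glargine and vehicle, 0.0657% between X10 and vehicle, 0.00598% between IGF1 and vehicle and 0.155% between X10 plus IGF1 and the other 3 groups. Between X10 and glargine 1.78% were called, between IGF1 and glargine 0% and between X10 and IGF1 0%. Without adjustment, 4 of the 62 tests had a p-value under 0.05, and they belonged to Runx1 and Rb1. The share of all genes with such an unadjusted p-value was 6.23% for glargine, 11% for X10 and 8.84% for IGF1 against vehicle, and 10.5% for X10 plus IGF1 against the other groups. It was 11.6% for X10 and 6.98% for IGF1 against glargine, and 11.7% for X10 against IGF1.

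Runx1 was highest in vehicle tumors, with a median of 15.8 RPKM (9.27 to 18.8). Its medians were 13.4 RPKM with insulin (8.32 to 16.6), 12.9 with glargine (9.35 to 17.1), 12.2 with X10 (9.07 to 17.8) and 11.9 with IGF1 (9.07 to 14.9). Each treatment group overlapped with vehicle in range, but the low end of vehicle rested on a single tumor. That was Untreated_189 at 9.27 RPKM, and the next lowest vehicle tumor, Untreated_197, had 13.4 RPKM. The log2 difference from vehicle was -0.32 ± 0.12 (SE, n = 10 per group) with IGF1 (limma, p = 0.0110, adjusted p = 0.413) and -0.28 ± 0.12 with X10 (limma, p = 0.0218, adjusted p = 0.375). In the comparison of IGF1 with vehicle, 5 of 8 epithelial markers were also lower at an unadjusted p-value under 0.05 (median log2 difference -1.86), and the r of Runx1 with their sum was 0.22. With an epithelial marker score as a covariate Runx1 had -0.23 with IGF1 (limma, p = 0.0795, adjusted p = 0.965). Of all genes, 4.34% were lower with IGF1 and 8.25% lower with X10 at the same unadjusted threshold. With X10 the balance over all genes turned on the scaling, from 1381 lower and 460 higher to 871 lower and 917 higher with upper quartile scaling and 932 lower and 844 higher with quantile normalization. Runx1 had -0.22 with X10 under each of these scalings. For X10 and IGF1 together against the other 3 groups the log2 difference of Runx1 was -0.17 ± 0.08 (limma, p = 0.0320, adjusted p = 0.409), where 7.57% of all genes were lower at the unadjusted threshold (1267 lower and 497 higher, against 859 and 996 with quantile normalization). In that comparison 3 of 8 fibroblast and mesenchymal markers were lower at the same threshold (median -0.31), and Runx1 had an r of 0.11 with their sum. Cbfb, the partner of Runx1, had its highest median in X10 tumors (51.9 RPKM, 24.5 to 67.3) and its lowest in vehicle tumors (40.4 RPKM, 21.2 to 63.98), with no difference past the test.

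Rb1 was lowest in vehicle tumors, with a median of 46.6 RPKM (21.2 to 89.9). Its median was 66.8 RPKM with glargine (29.6 to 152), 64.7 with insulin (43.8 to 106), 63.8 with X10 (50.0 to 84.0) and 55.6 with IGF1 (24.6 to 85.9). The log2 difference of glargine from vehicle was 0.56 ± 0.23 (limma, p = 0.0194, adjusted p = 0.789), at an unadjusted threshold that 3.31% of all genes passed in that direction. Milk protein markers were higher in the same comparison in 4 of 4 (median log2 difference 2.21) and adipocyte markers in 2 of 5 (median 1.03) at an unadjusted p-value under 0.05, and Rb1 had an r of 0.325 with the milk protein sum and of -0.018 with the adipocyte sum. Between IGF1 and glargine 3 of 4 milk protein markers (median -1.96), 3 of 5 adipocyte markers (-1.41), 2 of 8 epithelial and 2 of 8 fibroblast and mesenchymal markers were lower by the same measure. The part of these cells in the differences of Rb1 was not tested. With X10 the difference of Rb1 from vehicle was 0.45 ± 0.23 (limma, p = 0.0585, adjusted p = 0.474), and between IGF1 and glargine it was -0.34 ± 0.23 (limma, adjusted p = 0.817). With the long-minus-short gene score as a covariate the difference from vehicle was 0.46 with glargine and 0.27 with X10, and that between IGF1 and glargine was -0.20. Without Untreated_161 and Untreated_174 the difference from vehicle was 0.34 with glargine and 0.23 with X10. The part of the score in these differences was not tested further.

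**Figure D3:**
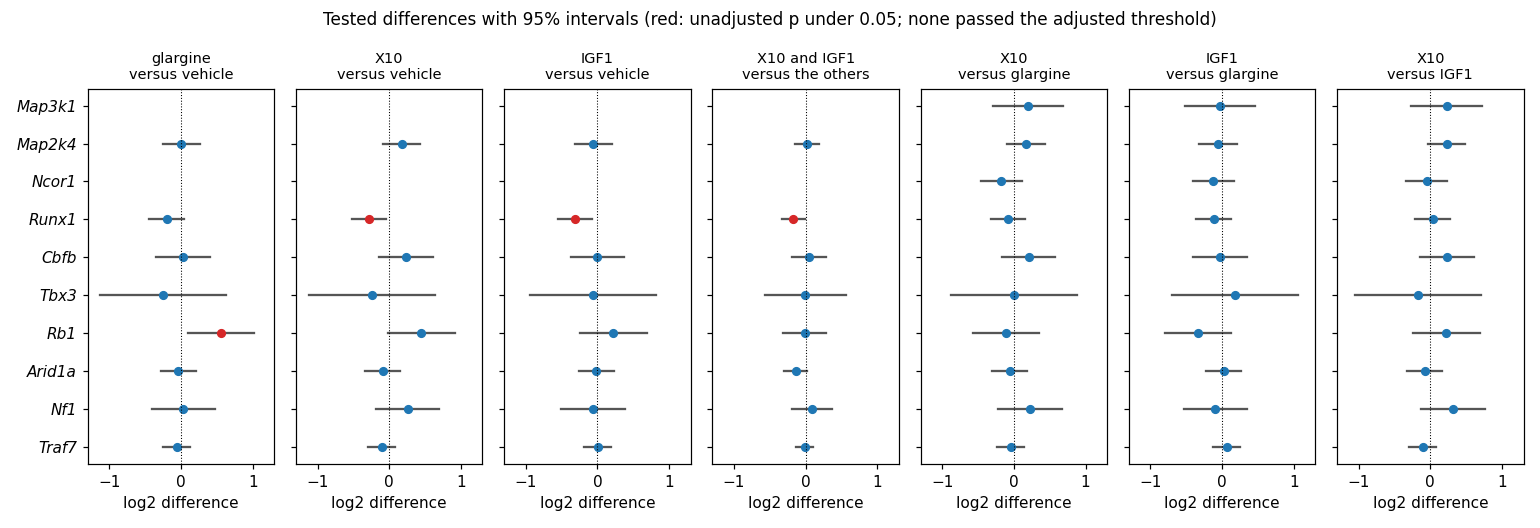
Log2 differences (points) with 95% intervals (lines) from limma for each tested gene in 7 comparisons, 10 tumors per group. Intervals of Tbx3 reach from -1.13 to 1.06 and those of Traf7 from -0.30 to 0.25, and red marks the 4 differences with an unadjusted p-value under 0.05.

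The width of the intervals set what could be seen. For Traf7 every 95% interval of the 7 comparisons lay between -0.30 and 0.25 on the log2 scale, for Arid1a between -0.34 and 0.26, and for Map2k4 between -0.32 and 0.49. Rb1 intervals reached from -0.80 to 1.02 and those of Nf1 from -0.53 to 0.76. For Map3k1, in 3 comparisons between glargine, X10 and IGF1, they lay between -0.52 and 0.72, and for Ncor1 between -0.46 and 0.23. The largest difference of Nf1 was 0.32 between X10 and IGF1. It was 0.11 with the long-minus-short score as a covariate and 0.19 without IGF1_160. Of the differences tested for Ncor1, the lowest was -0.17 between X10 and glargine. Map2k4 was between 48.5 and 61.9 RPKM in X10 tumors and, apart from IGF1_160 at 20.1 RPKM, between 43.7 and 56.4 in IGF1 tumors (log2 difference 0.23 ± 0.13, limma, adjusted p = 0.490). Without IGF1_160 that difference was 0.10, and with the score as a covariate it was 0.11. In the same comparison 4 of 8 epithelial markers were higher with X10 at an unadjusted p-value under 0.05 in limma, and 0 were lower (median log2 difference 1.57). The r with their sum was -0.07 for Nf1 and 0.02 for Map2k4, and the part of these cells in the differences was not tested further.

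Tumors of the same group differed far more in some of the genes than in others. The within-group SD on the log2 scale was 1.01 for Tbx3, 0.56 for Map3k1, 0.53 for Rb1, 0.50 for Nf1 and 0.42 for Cbfb, and 0.20 for Traf7. The median over the 10904 genes of at least 5 RPKM was 0.38, and 93.9% of those genes had a lower SD than Tbx3 while only 1.697% had a lower one than Traf7. Tbx3 was between 0.220 RPKM in IFG1_132 and 17.1 RPKM in IGF1_147, a 77.6-fold range with both of its ends in the IGF1 group. Traf7 was between 119 and 226 RPKM, a 1.89-fold range over all 50 tumors. Runx1, Arid1a, Map2k4 and Ncor1 lay between, with SDs of 0.26, 0.26, 0.29 and 0.31.

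Across tumors, several of the genes rose and fell together. Correlations were taken over the 50 tumors after centring on the group means, with p-values from permutations within groups adjusted over the 45 pairs. There were 15 pairs with an adjusted p-value under 0.05, each with a positive r. How many pairs of other genes would pass was not tested. Ncor1 and Rb1 were closest (r = 0.683, rho = 0.615, permutation p = 1e-05, the smallest that the permutations can give, adjusted p = 0.000225). Map2k4 and Ncor1, 3.37 Mb apart on chromosome 11, followed (r = 0.640, rho = 0.607, permutation p = 1e-05, adjusted p = 0.000225). Map3k1 was correlated with Rb1 (r = 0.587, rho = 0.525, permutation p = 4e-05, adjusted p = 0.000600) and with Arid1a (r = 0.541, rho = 0.433, permutation p = 0.000130, adjusted p = 0.00117). When the 2 tumors most distant from the middle value of the first gene were dropped, r was 0.651, 0.616, 0.501 and 0.446 for these 4 pairs. Map2k4 with Cbfb and with Rb1 fell most without such tumors, to 0.166 from 0.428 and to 0.280 from 0.509. For Ncor1 and Rb1, 1.27% of genes of at least 5 RPKM had as high an r to Ncor1, and 1.05% to Rb1. For Ncor1 and Cbfb, also among the 15 pairs, these shares were 16.7% to Ncor1 and 20.1% to Cbfb. For Cbfb and Nf1 they were 20.7% to Cbfb and 15.1% to Nf1. An r past the threshold was thus not always rare among expressed genes.

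Partners in a pathway were not the closest pairs. Runx1 and Cbfb had an r of 0.058 (rho = 0.141, permutation p = 0.705, adjusted p = 0.756). The r of Map3k1 with Map2k4 was 0.29, below that of Map3k1 with Rb1. Traf7 had a negative r with all of the others except Runx1 and Arid1a, the lowest with Rb1 (r = -0.366, rho = -0.317, permutation p = 0.0205, adjusted p = 0.0577). Tbx3 had no pair past the threshold.

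Much of this shared variation moved with the balance of long and short genes. The r with the long-minus-short score was 0.724 for Ncor1, 0.71 for Cbfb, 0.67 for Map2k4, Rb1 and Nf1, 0.388 for Map3k1, 0.37 for Arid1a and -0.29 for Traf7. With the score regressed out of both genes, a step added after seeing the data, 2 of the 15 pairs remained past the threshold. These were Map3k1 with Rb1 (r = 0.477, adjusted permutation p = 0.0310) and Map3k1 with Arid1a (r = 0.464, adjusted permutation p = 0.0310). Ncor1 and Rb1 then had an r of 0.390 (adjusted permutation p = 0.0935), and Map2k4 and Ncor1 one of 0.308 (adjusted permutation p = 0.424). In the 30 glargine, X10 and IGF1 tumors alone, which had no part in the choice of Map3k1 and Ncor1, 9 pairs passed. There Map3k1 had an r of 0.628 with Rb1 and of 0.610 with Arid1a.

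**Figure D4:**
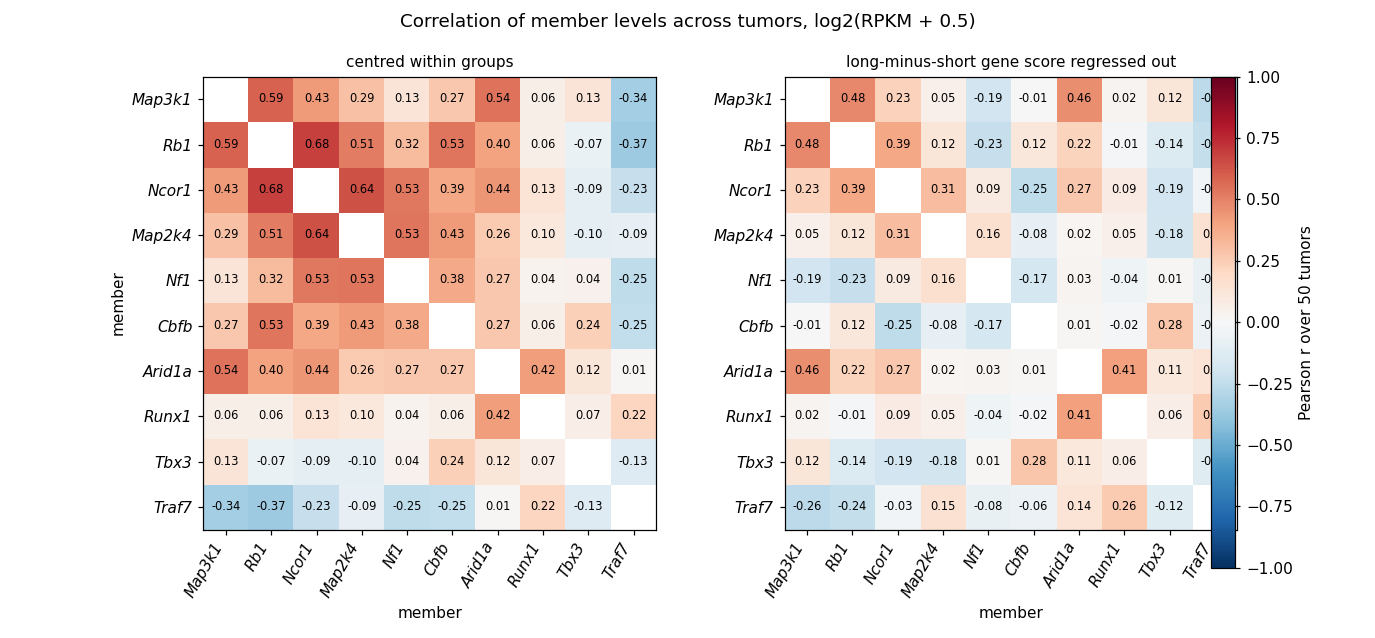
Pearson r of each pair of genes over 50 tumors on log2(RPKM + 0.5), centred within groups (left) and with the long-minus-short gene score also regressed out (right). The block of red squares among Rb1, Ncor1, Map2k4, Nf1 and Cbfb is pale on the right, and Map3k1 keeps 0.48 with Rb1 and 0.46 with Arid1a.

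Over all 10904 genes of at least 5 RPKM, those most like Map3k1 were Acss1 (r = 0.848), Sparcl1 (0.764), Fli1 (0.741), Fam46c (0.738) and Atp8a1 (0.727), on 4 chromosomes. Fli1 is an ETS factor of blood and endothelial cells. The summed endothelial markers had an r of 0.512 (rho = 0.462) with Map3k1 over the same tumors, the summed adipocyte markers 0.309, the milk proteins 0.286, the leukocyte markers 0.192 and the epithelial markers -0.198. All 4 endothelial markers were above 0 in every tumor, and their sum was between 48.5 and 97.8 RPKM in vehicle tumors (median 68.4) and between 59.3 and 122 RPKM in insulin tumors (median 79.4). With the endothelial score as a covariate the log2 difference of Map3k1 between insulin and vehicle was 0.68, and the part of these cells in it was not tested further. Other cell markers differed more between these groups. Of 6 leukocyte markers 3 were higher with insulin at an unadjusted p-value under 0.05 in limma (median log2 difference 0.58), and their sum was between 659 and 2789 RPKM in insulin tumors (median 1623) and between 624 and 2135 RPKM in vehicle tumors (median 1121). Of 8 epithelial markers 3 were lower by the same measure (median log2 difference -0.96), with sums between 70.6 and 602 RPKM in insulin tumors (median 283) and between 22.8 and 9410 RPKM in vehicle tumors (median 412). With an epithelial marker score as a covariate the difference of Map3k1 was 0.82, and the part of leukocytes in it was not tested. Those most like Ncor1 were Smcr8 (r = 0.837), Srcap (0.817), Kat6a (0.807), Usp34 (0.802) and Smg1 (0.801). The endothelial sum had an r of 0.126 with Ncor1. Tbx3 had an r of 0.32 with endothelial, of -0.29 with epithelial and of 0.19 with fibroblast and mesenchymal markers, and Rb1 one of -0.45 with the latter.

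For some of the genes the most similar genes lay on their own chromosome. Of the 20 coding genes with the highest r to Cbfb, 20 were on chromosome 8, which holds 5.51% of the 9692 coding genes compared, at r from 0.827 to 0.898. They were spread over the chromosome, between 0.888 and 69.7 Mb from Cbfb. For Traf7 17 of 20 were on chromosome 17 (4.95% of genes), and for Arid1a 15 of 20 were on chromosome 4 (6.52%). On chromosome 11 (8.92%) the numbers were 7 of 20 for Map2k4, 6 for Nf1 and 4 for Ncor1. Map3k1 and Rb1 had 2 each, Tbx3 1 and Runx1 0. Among the 100 closest genes, 49 for Cbfb, 51 for Traf7 and 46 for Arid1a shared the chromosome. With the long-minus-short score regressed out, the numbers of 20 were 18 for Map2k4, 18 for Nf1, 19 for Ncor1 and 9 for Rb1, against 1 for Map3k1 and 0 for Runx1. These are descriptions over the same tumors and genes, and DNA copy number was not measured here.

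**Figure D5:**
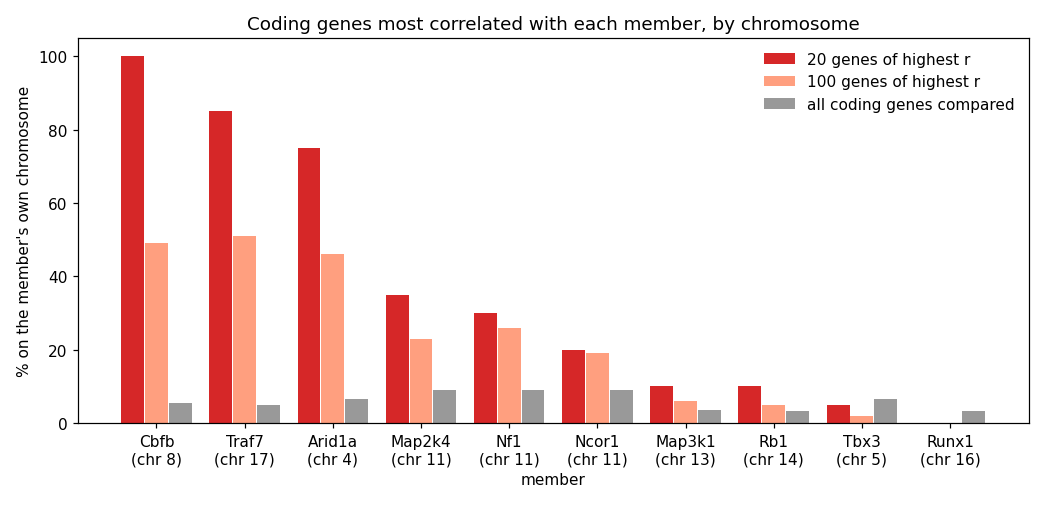
Percentage of the 20 and the 100 coding genes of highest r to each gene that lie on its own chromosome, beside the percentage of all coding genes compared. The red bars are at 100% for Cbfb and fall to 0% for Runx1, against 3.22% to 8.92% of all genes.

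The level of a gene and that of its whole chromosome could be read side by side in single tumors. X10_95 was 0.92 below its group mean in Cbfb on the log2 scale, and the median of the 534 other coding genes of chromosome 8 was 0.46 below. In Untreated_187 Cbfb was 0.69 above and the chromosome 0.34 above. In IGF1_145 Arid1a was 0.68 below its group mean and the median of chromosome 4 was 0.32 below, and in Untreated_161 these values were 0.57 and 0.43. By contrast, Cbfb in IGF1_160 was 1.11 below its group mean, whereas the median of chromosome 8 was at -0.13 and the genes within 5 Mb were at -0.01. The median of all coding genes in IGF1_160 was at -0.18. That tumor had the lowest long-minus-short score. Map3k1 in X10_105, at 114 RPKM, was 1.11 above its group mean with the genes within 5 Mb at -0.09. In the tumors lowest in Map3k1 the chromosome was low as well. In Untreated_174 Map3k1 was at -1.496 from its group mean, the median of the genes within 5 Mb was 0.62 below and that of chromosome 13 was 0.51 below, the lowest of the 50 tumors. In Untreated_161 Map3k1 was 1.39 below, the genes within 5 Mb 0.23 below and the chromosome 0.35 below. The r with the median of the own chromosome was 0.631 for Cbfb, 0.554 for Traf7, 0.508 for Arid1a, 0.381 for Map3k1 and -0.044 for Runx1.

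Other genes of the same pathways did not pass the test either. Of 129 further genes in 9 lists, 123 were tested, and none had an adjusted p-value under 0.05 in any of the 8 comparisons (limma). Between the 20 tumors given X10 or IGF1 and the remaining 30, 5 of the 123 had an unadjusted p-value under 0.05, beside 10.5% of all genes. In the JNK kinase module Map2k7, the other kinase below Map3k1, was lower by that measure (-0.15 ± 0.07, SE, limma, adjusted p = 0.387), beside Dusp10 (0.16 ± 0.16) and Map3k11 (-0.08 ± 0.08). Among corepressor genes Hdac3 had a log2 difference of 0.07 ± 0.08 and Sin3a one of 0.06 ± 0.07. In the RUNX and CBFB family, the corepressor Tle3 (-0.15 ± 0.07), Runx1t1 (-0.21 ± 0.16) and Runx2 (-0.14 ± 0.11) had the smallest p-values. Of the 4 tested T-box genes Tbx15 had -0.42 ± 0.34, Tbx1 -0.16 ± 0.23 and Tbx2 -0.05 ± 0.11. In the RB pathway E2f4 had -0.20 ± 0.09 (limma, adjusted p = 0.428), Cdk4 0.16 ± 0.13 and Rbl2, a relative of Rb1, -0.13 ± 0.12.

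In the SWI/SNF complex Smarce1 had a log2 difference of 0.16 ± 0.08 in the same comparison, Dpf2 one of -0.13 ± 0.07 and Arid1b, the alternative to Arid1a, one of -0.11 ± 0.08. In the list of RAS genes and their regulators, Nras had 0.17 ± 0.10 and Lztr1 -0.16 ± 0.11. Lztr1 reached 369 RPKM in Untreated_197 and 164 RPKM in Untreated_174, beside a median of 85.8. Of Cdk4, a kinase that phosphorylates Rb1, a single tumor (X10_95) had 1224 RPKM beside a median of 218. Among the TRAF family Traf5 had 0.17 ± 0.14, Traf1 0.11 ± 0.18 and Traf3 -0.07 ± 0.11. Of 33 other breast cancer driver genes, 32 were tested, and Pik3r1, the regulatory subunit of PI3 kinase, was lowest in p-value (-0.35 ± 0.14, limma, adjusted p = 0.343), with Erbb2 (-0.30 ± 0.16) also among the lowest. The median log2 difference of these 32 genes was -0.05, beside -0.02 over all genes tested.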

How the data were processed

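Poly-A RNA of 50 MG tumors was sequenced on the Ion Proton. The submitters' processing notes name TopHat2 2.0.10 with Bowtie2, GRCm38, HTSeq 0.6.1 and DESeq2 1.2.10, and the RPKM values were deposited by the authors in 1 table of 37701 genes, divided by a gene length and by library size. Each tumor was assigned to its group by its title, and its number is the mouse number. No column was left over.

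The 10 genes and all gene lists were chosen with earlier results of these data known. RPKM values were taken to log2(RPKM + 0.5), and the 16733 genes with a mean of at least 0.5 RPKM were fitted with limma 3.58.1 (R 4.3.3) on all 5 groups, with an intensity trend and Benjamini-Hochberg adjustment at 0.05. Gene lengths and reads were recovered from the steps of the RPKM values, at which at least 97.9% of low values in each library were whole, and lengths were found for 99.1% of tested genes. Since the values used here are RPKM, a fit to recovered reads was only an alternative (limma voom). The limma fit and the recovery of reads were tested on simulated data. Pairs were tested by 100000 permutations within groups. Of the list genes, the 3 of smallest p-value per list in X10 and IGF1 against the others were named, and the 5 genes of highest r were named for a gene. Some genes that this rule names are not reported here. Labels do not say whether tumors of a group shared a litter or a day, so p-values measure the spread between these tumors. Python 3.11.15, numpy 2.4.6, pandas 2.3.3, scipy 1.17.1 and matplotlib 3.10.9 were used.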

Additional observations from a re-analysis of the deposited data

Results flagged for a closer look

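In 3 of the 50 sets of 10 tumors (10 genes in 5 groups), 1 tumor lay apart from the rest by Dixon's test at its 95% critical value for 10 samples, which chance passes in about 1 in 20 sets. Map3k1 had 114 RPKM in X10_105, where the next tumor had 61.5 RPKM (gap over range 0.720). Map2k4 had 20.1 RPKM in IGF1_160, where the next had 43.7 RPKM (gap over range 0.651). Arid1a had 27.4 RPKM in glargine_63, where the next had 22.1 RPKM (gap over range 0.477).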

How the results depend on the processing

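None of the 10 genes passed an adjusted p-value of 0.05 in the 7 tested comparisons under 15 alternatives or with any 1 of the 50 tumors left out (limma, smallest adjusted p = 0.197). Of 14 named differences, 2 changed sign, both of Tbx3. With an epithelial marker score as a covariate Tbx3 had -0.046 in place of 0.18 between IGF1 and glargine, and 0.14 in place of -0.18 between X10 and IGF1. With 1 tumor left out these differences were between -0.027 and 0.50 and between -0.49 and 0.020, and they changed sign without glargine_69 (-0.027) or IGF1_147 (-0.016) and without IGF1_147 (0.020). The cause was not tested. Pairs past the threshold numbered 9 in the 30 glargine, X10 and IGF1 tumors, where fewer tumors were used, and 2 with the long-minus-short score regressed out, where r was -0.083 for Map2k4 and Cbfb, -0.251 for Ncor1 and Cbfb and -0.174 for Cbfb and Nf1. Insulin minus vehicle was between 0.70 and 0.97 for Map3k1 and between 0.35 and 0.49 for Ncor1 with 1 tumor left out. Over all tested genes, the alternatives called 11 to 172 genes between X10 plus IGF1 and the others (26 in the fit as reported), 142 to 473 between X10 and glargine (298) and 1 to 24 between X10 and vehicle (11). With 1 tumor left out they were 10 to 131, 76 to 577 and 1 to 21. Insulin against vehicle called 0 to 2 genes under the alternatives and 0 to 3 with 1 tumor left out (0 as reported), IGF1 against vehicle 0 to 1 and 0 to 3 (1), and X10 against IGF1 0 and 0 to 8 (0). Reads per exonic kilobase, the long-minus-short and endothelial covariates, leaving out Untreated_161 and Untreated_174, and the chromosome settings were chosen after seeing the data. No paired analysis was possible because mouse numbers are not shared between groups.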
